A study of Mus musculus with 16 samples.

Results

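The disease-associated microglia markers studied here are 10 genes, Itgax, Clec7a, Cst7, Spp1, Gpnmb, Lgals3, Cd9, Cd63, Lyz2 and Igf1, chosen by symbol from the 24015 gene rows of the deposited table. All 10 have a row. Of these, 9 were among the 11579 genes with enough signal to be tested, and Gpnmb was not, because only 5 of the 12 samples reached 10 normalized counts. RNA was measured in microglia from the microdissected hippocampus of perfused mice, with 6 young samples from animals aged 3 months and 6 aged samples from animals aged 20 months. The sort kept live CD11b+CD45lo cells, and no treatment, transgene or disease model is named for either age. The strain label is C57BL/6, except for aged 5, labelled C57BL/7, and aged 6, whose 2 libraries are labelled C57BL/8 and C57BL/9. The sources used here give neither the sex of the animals nor the number of mice behind a sample, so a p-value speaks only of the variation among these 12 samples.

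Disease-associated microglia are a state first described around amyloid plaques and since seen in ageing, demyelination and nerve injury. Microglia that enter it lower receptors of the resting cell, such as P2ry12, and raise genes for phagocytosis, lysosomes and lipid handling, in part through the receptor Trem2 and its adaptor Tyrobp. Several of the markers are also expressed by monocytes, border macrophages, dendritic cells or other leukocytes, so a level in sorted cells need not come from microglia.

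With age, 1 of the 9 tested markers rose, 0 fell, and the other 8 missed the threshold (limma, Benjamini-Hochberg adjusted over all 11579 genes at 0.05). Among all tested genes 1.27% rose and 0.458% fell, 1.73% in all. The marker that rose was Lyz2, a lysozyme of myeloid cells, by 1.56-fold. Cst7, a cysteine protease inhibitor, had the largest difference of means on the log2 scale but varied widely among the aged samples and did not pass. Itgax, the gene for the integrin CD11c, and the tetraspanin Cd9 had differences near 0. The log2 difference was above 0 for 7 of the 9 tested markers, with a median of 0.21, against 50.5% above 0 and a median of 0.0016 over all tested genes. At an unadjusted p under 0.05 there were 4 of 9 markers and 10.8% of all genes. Of the 4 markers, Lyz2, Cst7 and Clec7a were higher with age and Igf1 was lower. Since these are bulk samples, fewer cells of a type and less RNA per cell cannot be told apart.

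**Figure D1:**
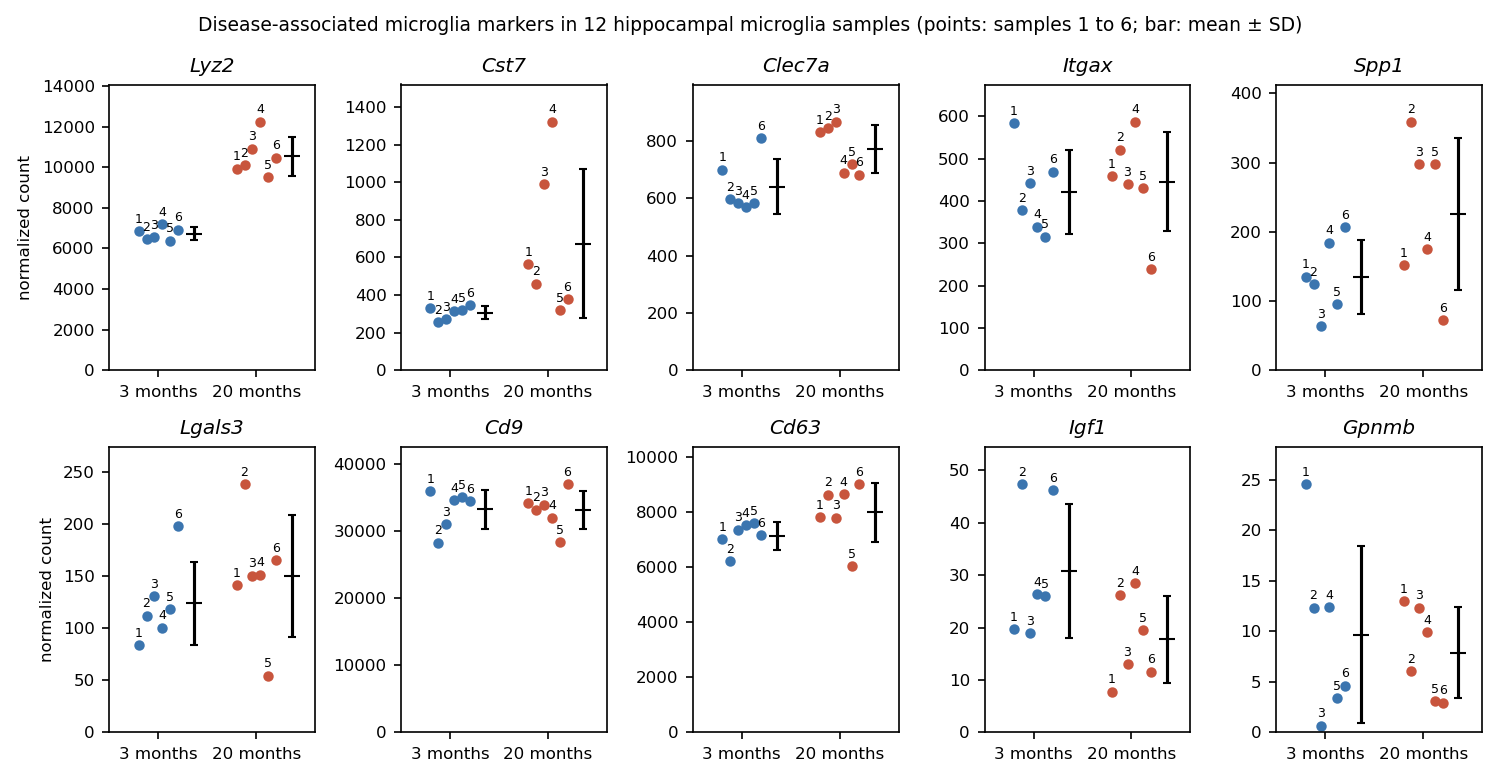
Normalized counts (y axis, linear and starting at 0) of the 10 markers in each of the 6 samples at 3 months (blue) and at 20 months (red), with sample numbers and, beside them, the mean ± SD. Every aged sample lies above every young sample for Lyz2, and the ages overlap for the other 9.

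Lyz2 encodes lysozyme C-2, the secreted enzyme that cuts bacterial cell walls, and its promoter is widely used to mark myeloid cells. The young samples had a lowest value of 6377, a median of 6710 and a highest value of 7186 normalized counts. The aged samples had 9527, 10287 and 12243. No aged sample fell within the young range, and the lowest aged sample was 1.33 times the highest young one. Such a full separation with the aged samples higher was seen for 1.16% of all tested genes, and one with the aged samples lower, which no marker had, for 0.717%. The mean went from 6725 ± 313 to 10533 ± 963 normalized counts (SD, n = 6 each), a log2 difference of 0.64 with a 95% interval of 0.50 to 0.78 (limma, adjusted p = 1.7e-05). It ranked 17th by p among the 11579 genes. The spread within each age was small. The SD of the log2 values was 0.067 in young and 0.13 in aged samples, against medians of 0.19 and 0.22 over all tested genes.

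Lyz2 has a neighbouring near copy, Lyz1, which is known mainly from Paneth cells of the gut. Lyz2 lies at chr10:117277331-117282321 and Lyz1 at chr10:117287797-117292868, both on the minus strand (mm10). The first 150 coding bases of each, from the GENCODE transcripts of that build, are shown because this stretch holds 14 of the 22 coding bases by which the genes differ. Capitals mark those 14 bases.
Lyz2: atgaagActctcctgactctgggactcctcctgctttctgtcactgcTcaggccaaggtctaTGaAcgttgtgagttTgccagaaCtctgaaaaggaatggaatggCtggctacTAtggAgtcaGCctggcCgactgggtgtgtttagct
Lyz1: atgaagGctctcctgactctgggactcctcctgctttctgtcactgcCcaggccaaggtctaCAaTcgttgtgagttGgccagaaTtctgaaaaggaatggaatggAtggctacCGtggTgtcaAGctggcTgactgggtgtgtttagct
The 447 coding bases of the genes are 95.1% identical, and the aligned transcripts 96.0%. Of the 1167 stretches of 150 bases, the stated read length, in the Lyz2 transcript, 0 also occur in Lyz1. Lyz1 itself was at 0 to 5.66 normalized counts in young and 1.10 to 7.96 in aged samples, with at most 10 reads in any sample whose reads could be recovered. The sources used here do not say how reads that match both genes, or reads trimmed below full length, were counted.

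Because Lyz2 is abundant in monocytes, border macrophages and neutrophils, their markers are given beside it. CPM are normalized counts scaled to the total of a sample. Lyz2 averaged 248.6 CPM in young and 394 CPM in aged samples, a difference of 145 CPM. The summed level of 7 monocyte markers was 2.11 to 4.48 CPM in young and 4.15 to 5.86 CPM in aged samples, a difference of 1.89 CPM between the means. Ccr2, the chemokine receptor of inflammatory monocytes, averaged 65.6 ± 19.6 in young and 99.4 ± 26.9 in aged samples (SD, n = 6). The summed level of 7 border macrophage markers was 8.36 to 14.6 CPM in young and 6.97 to 27.7 CPM in aged samples. None of the 3 monocyte and 6 border macrophage markers that were tested passed in limma. Under 0.05 unadjusted there were 2 and 3 of them, all higher with age. All 3 monocyte markers had a log2 difference above 0, with a median of 0.69. Of the 6 border macrophage markers, 5 were above 0, and the median of the 6 was 0.82. Mrc1, the most abundant of them, was at -0.27 (limma, adjusted p = 0.856). Of the 6 neutrophil markers in the table, S100a8, S100a9 and Ngp were highest in aged 4, the sample with the most Lyz2. There S100a8 was at 43.9 normalized counts and Ngp, another neutrophil granule gene, at 162. The others went another way. Csf3r was highest in aged 5, and Cxcr2 and Retnlg were highest in young samples. The sum of the 6, nearly all of it Csf3r, was highest in aged 5, at 950 CPM, with aged 4 next. Aged 5 had the least Lyz2 of the aged samples. Without aged 4 the log2 difference of Lyz2 was 0.60 (limma, adjusted p = 4.4e-05). The part of other cells in the Lyz2 difference was not tested.

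Cst7 (chr2:150570415-150578944, plus strand) encodes cystatin F, an inhibitor that is sorted to lysosomes and acts on cathepsins. Its young samples had a lowest value of 256, a median of 316 and a highest value of 347 normalized counts, and its aged samples had 320, 513 and 1321. Aged 4, at 1321, and aged 3, at 988, were far above the rest, aged 1, at 566, and aged 2, at 460, were in between, and aged 6, at 378, lay just above the young range. Aged 5, at 320, lay inside it. The log2 difference was 0.95 ± 0.27 (SE), with a 95% interval of 0.38 to 1.51, and did not pass (limma, adjusted p = 0.0992). It passed without aged 5, at 1.12 (limma, adjusted p = 0.0262), and without both aged 5 and aged 6, at 1.32 (limma, adjusted p = 0.0048). Without aged 4 it was 0.71 (limma, adjusted p = 0.164), and without aged 3 it was 0.80 (limma, adjusted p = 0.243). The SD of the log2 values was 0.17 in young and 0.80 in aged samples, and 94.5% of tested genes had a smaller SD among the aged samples. Cst7 is also expressed by cytotoxic lymphocytes. The summed level of 6 lymphocyte markers stayed at or below 0.879 CPM in every sample, and Nkg7, a gene of cytotoxic granules, at or below 3.08 normalized counts. The sum of 6 dendritic cell markers was 5.36 to 8.03 CPM in young and 5.49 to 9.61 CPM in aged samples. It was highest in aged 4. Zbtb46, the most abundant of these markers, averaged 134 ± 19.7 normalized counts in young and 103 ± 54.9 in aged samples (SD, n = 6). The part of other cells in the Cst7 difference was not tested.

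**Figure D2:**
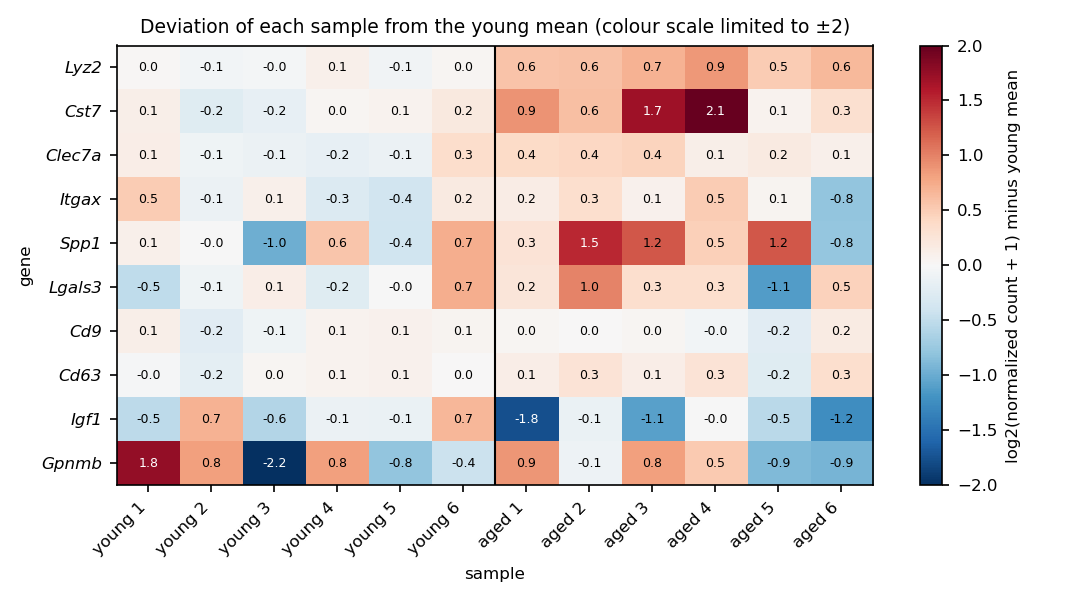
Each cell gives the log2(normalized count + 1) of a marker (row) in a sample (column) minus the mean of that marker over the 6 young samples, with red above and blue below it. Lyz2 is above the young mean in all 6 aged samples, Cst7 is far above it in aged 3 and aged 4, and aged 6 is below it for Itgax, Spp1, Igf1 and Gpnmb.

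Of the surface receptors, Clec7a (chr6:129461591-129472779, minus strand) encodes dectin-1, which binds fungal glucans and signals through the kinase Syk and the adaptor Card9. Its young samples had a lowest value of 569, a median of 590 and a highest value of 809 normalized counts, and its aged samples had 682, 775 and 867. All 6 aged samples were above the young median, but young 1, at 700, and young 6, at 809, lay within the aged range. The log2 difference was 0.27, with a 95% interval of 0.05 to 0.50, and did not pass (limma, adjusted p = 0.313). Of its tested signalling partners, Syk, Card9, Bcl10 and Malt1, 0 of 4 passed, with log2 differences from -0.24 for Card9 to 0.07 for Syk.

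Itgax (chr7:128129547-128150657, plus strand) encodes CD11c, an integrin chain of dendritic cells and activated microglia that pairs with the chain made by Itgb2. Its young samples had 316, 410 and 584 normalized counts as lowest, median and highest values, and its aged samples 238, 449 and 587. The ages covered nearly the same range, with aged 6 the lowest of the 12 samples and aged 4 and young 1 the highest. The log2 difference was 0.06, with a 95% interval of -0.35 to 0.47 (limma, adjusted p = 0.955). Its sign turned without aged 4, at -0.03, and without young 5, at -0.02. Itgb2, at 0.10, and Itgam, the CD11b gene used in the sort, at -0.04, did not pass.

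Cd9 (chr6:125460266-125494791, minus strand) and Cd63 (chr10:128900989-128912822, plus strand) encode tetraspanins, membrane proteins of the cell surface and of late endosomes and exosomes respectively. Cd9 had a lowest value of 28278, a median of 34488 and a highest value of 35950 normalized counts in young samples, and 28323, 33534 and 36988 in aged samples. The ranges were almost the same, and the log2 difference was -0.0052, with a 95% interval of -0.16 to 0.15 (limma, adjusted p = 0.991). Its sign turned under other scalings, at 0.011 with equal column totals and 0.012 with quantile normalization. Part of its exons, 218 bases, overlap those of Gm26728 on the opposite strand, and the library kit does not mark the strand, so reads of the pair cannot be told apart.

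Cd63 had 6219, 7268 and 7616 normalized counts in young samples as lowest, median and highest values, and 6034, 8235 and 9029 in aged samples. Of the aged samples, 5 lay above every young one, and aged 5, at 6034, lay below them all. On the log2 scale the ages differed by 0.15, with a 95% interval of -0.04 to 0.34 (limma, adjusted p = 0.616), and without aged 5 it was 0.23 (limma, adjusted p = 0.122). Igsf8, listed as a partner of Cd9, at 0.23 (limma, adjusted p = 0.215), and the lysosomal membrane genes Lamp1, at 0.09, and Lamp2, at -0.10, did not pass.

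Of the secreted products, Spp1 (chr5:104435118-104441050, plus strand) encodes osteopontin, a ligand of the receptor Cd44 and of integrins. Its young samples had a lowest value of 63.3, a median of 130 and a highest value of 207 normalized counts, and its aged samples had 72.6, 236 and 359. Aged 2, aged 3 and aged 5 lay above the young range, while aged 6 was lower than 5 of the 6 young samples. Between ages the log2 means differed by 0.66, with a 95% interval of -0.08 to 1.40 (limma, adjusted p = 0.539). Fitted in limma to just the 8 single-library samples, it was 1.01 (adjusted p = 0.339). On the same strand, 309 bases of its exons are also annotated to Gm42793, so reads there could count for either. Cd44 averaged 29.8 ± 11.1 in young and 58.3 ± 24.5 in aged samples (SD, n = 6), a log2 difference of 0.96 that did not pass (limma, adjusted p = 0.254). Of the integrin chains that bind osteopontin, Itgav, Itgb1, Itgb3, Itgb5 and Itga4, 0 of 5 passed.

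Igf1 (chr10:87858265-87937042, plus strand) encodes insulin-like growth factor 1, which supports neurons and myelin. It was scarce, with a lowest value of 18.9, a median of 26.2 and a highest value of 47.4 normalized counts in young samples, and 7.78, 16.2 and 28.5 in aged samples. Aged 1, aged 3 and aged 6 lay below every young sample, and no aged sample lay above the young range. Its log2 difference was -0.80, with a 95% interval of -1.59 to -0.0017, and missed the threshold (limma, adjusted p = 0.460). Fitted in limma to just the 8 single-library samples, it was -0.47 (adjusted p = 0.828). It rests on 8 to 46 reads in the samples whose reads could be recovered. Its receptor gene Igf1r, at 0.09 on the log2 scale, did not pass.

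Lgals3 (chr14:47367751-47386160, plus strand) encodes galectin-3, a lectin that gathers at damaged lysosomes and binds Trem2. Its young samples had a lowest value of 83.5, a median of 115 and a highest value of 198 normalized counts, and its aged samples had 54.4, 151 and 238. The lowest of the 12 samples was aged 5 and the highest was aged 2. Its log2 difference was 0.21, with a 95% interval of -0.39 to 0.81 (limma, adjusted p = 0.887), and was 0.48 without aged 5 and 0.05 without aged 2. Lgals3bp, which encodes a secreted binding partner of galectins and is also a gene of the interferon response, rose from 8149 ± 752 to 13493 ± 4608 normalized counts (SD, n = 6). Its log2 difference was 0.67 (limma, adjusted p = 0.0325), with 5 of 6 aged samples above the highest young one. That call was lost in 13 of 24 alternatives, 7 of them fits without 1 sample (young 1, 4, 5 or 6, or aged 1, 3 or 5). Over all 24 the adjusted p-values ran from 0.0070 to 0.150.

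Gpnmb (chr6:49036546-49070929, plus strand) encodes a glycoprotein of lysosomes and melanosomes that is typical of lipid-laden macrophages. It was close to the floor, at 0.65 to 24.6 normalized counts in young samples, with a median of 8.47, and at 2.95 to 12.97 in aged samples, with a median of 7.96. The samples whose reads could be recovered held 1 to 15 reads of it. Fitted without the filter on low values, its log2 difference was 0.05, with a 95% interval of -1.27 to 1.37 (limma, adjusted p = 0.986), an interval that holds a 2-fold difference in either direction.

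**Figure D3:**
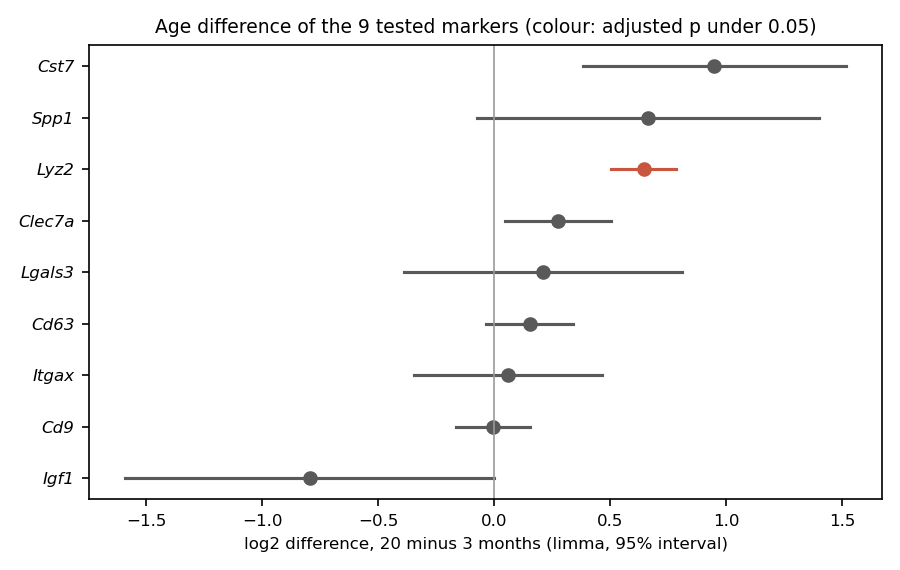
Log2 difference between the means at 20 and 3 months for the 9 tested markers (points) with its 95% interval (lines) from limma, on log2(normalized count + 1). The interval of Lyz2 runs from 0.50 to 0.78, and Lyz2 is the one marker with an adjusted p under 0.05 (red).

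Levels were compared between markers per kilobase of exon, as normalized counts divided by the joined length of all annotated exons of a gene. Cd9 was highest, at 16250 per kb in young samples, then Lyz2 at 5110, Cd63 at 1943, Cst7 at 310, Clec7a at 243, Itgax at 87.8, Spp1 at 81.8, Lgals3 at 66.6, Igf1 at 3.11 and Gpnmb at 1.48. Over the 12 samples the ranges overlapped for Cst7 and Clec7a, for Itgax, Spp1 and Lgals3 in turn, and for Igf1 and Gpnmb. The other neighbours in that order did not overlap. In aged samples Lyz2 was at 8004 per kb and Cst7 at 682, and Cd9 was still above them at 16188.

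Genes other than the 10 that have been assigned to the same state were read from a list of 46, of which 45 were in the table and 41 tested. In that list 5 genes rose, 0 fell and 36 missed the threshold, with a median log2 difference of 0.05 and 24 of 41 above 0. Those that rose were H2-D1, Anxa5, Axl, Cybb and Apoe. Over all tested genes 1.27% rose, 0.458% fell and 50.5% had a log2 difference above 0. Axl, a receptor for phosphatidylserine on dying cells, went from 1113 ± 170 to 2721 ± 809 normalized counts (SD, n = 6), a log2 difference of 1.23 (limma, adjusted p = 0.0016). Its aged samples lay between 2476 and 3395 apart from aged 6, at 1245, which was within the young range. Cybb, which encodes the oxidase subunit that makes superoxide in phagocytes, went from 146 ± 49.95 to 334 ± 90.4, a log2 difference of 1.21 (limma, adjusted p = 0.0056), with all aged samples above all young ones. Such a separation was seen for 1.16% of all tested genes.

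Apoe, the main lipid carrier of the brain and a defining gene of the state, went from 17917 ± 5847 to 32497 ± 7599 normalized counts (SD, n = 6), a log2 difference of 0.89 (limma, adjusted p = 0.0175). Here 5 of 6 aged samples lay above the young range, and the call was lost without young 6 (limma, adjusted p = 0.0527). H2-D1, a class I antigen-presenting gene, had a log2 difference of 0.95 (limma, adjusted p = 0.0012), and Anxa5, which encodes the phosphatidylserine-binding annexin A5, one of 0.49 (limma, adjusted p = 0.0014). Both were separated between the ages with the aged samples higher, as were 1.16% of all tested genes. H2-D1 has close relatives in its gene family, so its reads may be shared with them. Without aged 5 the number that rose was 8, with B2m, Cd52 and Cox6a2 added. On the 8 samples with 1 library it was 3 by limma and 3 by edgeR, where Anxa5 and Cybb were lost, and 6 by DESeq2, which kept both and added Cox6a2.

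The receptor complex and the tested transcription factors linked to the state missed the threshold. Among 19 tested regulators only Apoe, which also stands in the list above, rose, and 0 fell, with a median log2 difference of 0.02. Trem2, at -0.03 with a 95% interval of -0.20 to 0.15, and Tyrobp, at 0.16 with -0.10 to 0.42, did not pass. The transcription factor Bhlhe40, at 0.68 (limma, adjusted p = 0.288), and Plcg2, the phospholipase that signals below Trem2, at 0.21 (limma, adjusted p = 0.411), had the next smallest p-values. Of 32 tested ligands, receptors and partners of the 10 markers, 1 rose, Lgals3bp, and 0 fell. Beside both lists, 1.27% of all tested genes rose and 0.458% fell.

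Homeostatic genes of microglia, some of which are known to fall in this state, were read from a list of 20, all tested. Among them 0 rose, 1 fell and 19 missed the threshold, with a median log2 difference of -0.11 and 7 of 20 above 0. Those above 0 were Sall1, Siglech, Cst3, C1qa, C1qb, C1qc and Ctss. Over all tested genes 1.27% rose, 0.458% fell and 50.5% were above 0. Fcrls, an Fc receptor-like gene of microglia, fell by 0.47 on the log2 scale (limma, adjusted p = 3.8e-04), from 123873 ± 5703 to 89490 ± 6869 normalized counts (SD, n = 6), with no overlap. Full separation with the aged samples lower was seen for 0.717% of all tested genes. The purinergic receptor P2ry13, at -0.31 (limma, adjusted p = 0.0584), and the orphan receptor Gpr34, at -0.30 (limma, adjusted p = 0.0679), did not pass, but did so in 5 and 6 of 24 alternatives respectively. P2ry13 passed without young 3 or aged 5, and Gpr34 without aged 6. P2ry12 was at -0.18 and Tmem119 at -0.04, and neither passed.

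**Figure D4:**
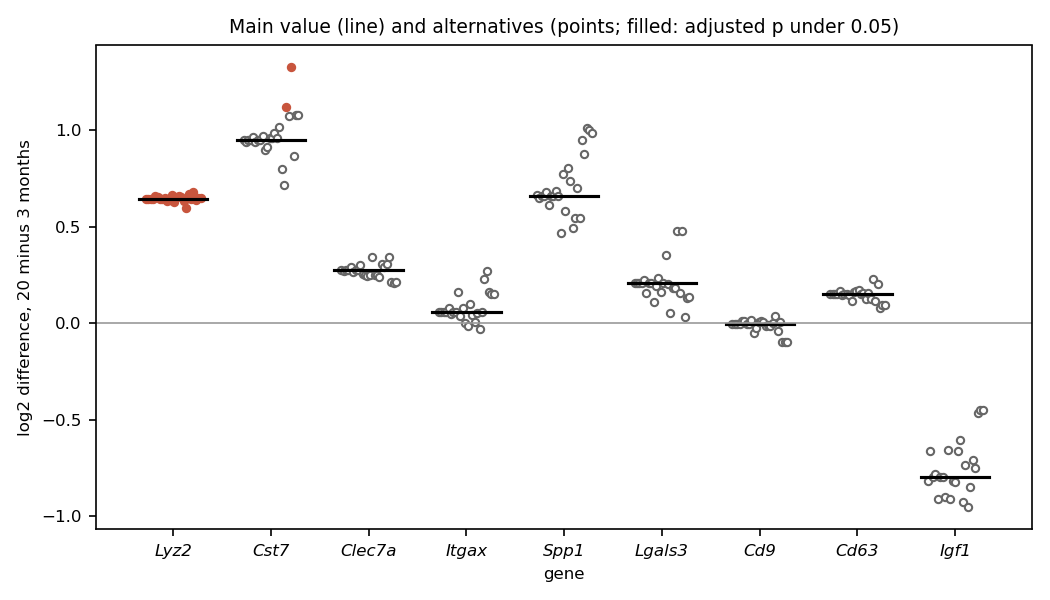
Log2 difference between 20 and 3 months for each tested marker (y axis) in the main fit (black line) and under the alternative settings (points, spread sideways only to separate them, and filled where the adjusted p was under 0.05). Lyz2 stays between 0.60 and 0.68 and is filled throughout, Cst7 is filled in 2 settings, and no other marker is filled in any.

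No pair of markers passed a test of covariation between samples. After each age's mean was subtracted, 36 pairs of the 9 tested markers were correlated over the 12 samples, which share library, depth and normalization. Pearson's r was above 0 in 27 pairs, with a median of 0.24. Its p-values came from permutation within ages. With Benjamini-Hochberg adjustment over the 36 pairs 0 passed, and 2 did unadjusted. The pair with the highest r was Cst7 and Lyz2, with r = 0.81 and Spearman's rho = 0.69 (permutation p = 0.0063, adjusted p = 0.228), and r fell to 0.47 without aged 4 and aged 5. Cd9 and Cd63 had r = 0.74, but 0.076 without aged 5 and young 2. Of the 10 markers, aged 4 had the highest aged value in 4 and aged 5 the lowest in 5. Among 10816 other genes, those whose age-centred values were most like Cst7's over the 12 samples were Zbtb46, with r = 0.91, Olfm4 and Ly6a. For Lyz2 they were Ddx49, with r = 0.90, Gusb and Wdyhv1, and for Clec7a Gpr165, with r = 0.86, Calcrl and Sgk1. For Itgax they were Kynu, with r = 0.96, Chst15 and Clic4, for Spp1 Il27ra, Nin and Atr, and for Igf1 Il12rb2, Olfr110 and Fbxo24. For Lgals3 they were Ptcd2, Lztfl1 and Commd2, for Cd9 Cd302, Akr1a1 and Slc25a4, and for Cd63 Lyrm2, Rpl6 and Lsm1. These are the highest of 10816 correlations per marker over only 12 samples, where high values can arise by chance, and none was tested. Zbtb46 is also the most abundant of the dendritic cell markers used here. Its log2 difference was -0.52 (limma, adjusted p = 0.552), the opposite direction to that of Cst7.

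The label of the cells was checked against markers. The summed level of 7 microglia markers was 59640 to 64649 CPM in young and 55467 to 60622 CPM in aged samples. Other types were far lower. The sums were 220 to 263 CPM for 7 oligodendrocyte markers and 41.3 to 68.5 CPM for 7 endothelial and mural cell markers. They were 5.36 to 9.61 CPM for 6 dendritic cell markers and 0.828 to 4.51 CPM for 7 neuron markers. The sum of 7 choroid plexus markers was 9.95 to 49.4 CPM in young and 16.5 to 132 CPM in aged samples. It was highest in aged 5, the sample with the lowest aged values of Lyz2, Cst7, Lgals3, Cd9 and Cd63. Next came aged 2, at 89.6 CPM, and aged 6, at 86.9 CPM. Of the 12 samples, aged 2 had the highest Lgals3, and aged 6 the highest Cd9 and Cd63. The part of choroid plexus in the marker values was not tested. The 6 neutrophil markers in the table summed to 687 to 950 CPM, nearly all of it Csf3r. The 7 astrocyte markers summed to 207 to 282 CPM, nearly all of it Slc1a3, and of these markers Aldh1l1 rose. The 9 genes of the dissociation response summed to 329 to 579 CPM in young and 377 to 563 CPM in aged samples. Their part in the marker values was not tested. Depth was 11.4 to 58.2 M reads, with means of 39.0 M in young and 36.4 M in aged samples (n = 6 each, two-sided exact permutation p = 0.777).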

How the data were processed

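RNA of sorted hippocampal microglia was read as SmartSeq v4 cDNA in Nextera XT libraries, which do not keep the strand, with paired reads of 150 bases, per the labels' protocols. Reads were trimmed, aligned with STAR, counted with SAMtools and normalized with DESeq2, per the series' design text and the submitters' processing notes, which name mm10. The sources used here name no versions and no annotation. The authors deposited normalized counts per gene symbol, a signal that is never negative, with 1 column for each of 12 samples and 24015 rows. The labels list 16 libraries, 2 each for young 2, young 4, aged 3 and aged 6, whose columns match the mean of 2 normalized libraries. In all 12 columns 100% of the values tested lay on steps of whole reads (tolerance 0.1 read, or 0.0005 normalized counts in columns of 2 libraries). Whole reads were recovered for the 8 samples with 1 library, and depth is estimated for the other 4.

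Values were log2(normalized count + 1). Genes with at least 10 normalized counts in 6 of 12 samples were tested two-sided in limma 3.58.1 (R 4.3.3; trended variance, age as the only term) at a Benjamini-Hochberg adjusted p of 0.05. The script was tested on simulated data. Fold changes on this scale understate those of low genes. edgeR 4.0.16 and DESeq2 1.42.0 were used as alternatives on recovered reads. Correlations used 100000 permutations within ages. Exon lengths and positions are from GENCODE M21.

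The markers, the context lists and the alternatives were chosen with earlier results of these data known. Genes named are the 10 markers, every context gene past the threshold, the 3 smallest p-values of a list where fewer passed, and the 3 genes most like each tested marker. Other genes were added after their values were seen, as partners or cell markers beside a result. Samples sharing a number were not paired, since the correlation of their deviations was -0.121 to 0.107. Lilrb4a, Ly6g and Trbc2 did not match a symbol.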

Additional observations from a re-analysis of the deposited data

Results flagged for a closer look

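In 46 groups of 6 samples, covering the markers and the named context genes at each age, the gap between an extreme sample and its nearest neighbour was compared with the range of the group at Dixon's 95% critical value for 6 samples. Chance flags about 1 in 20 groups, and 2 stood out here, neither of them a marker among the 10. Young 3 was the highest young sample for Anxa5, at 1233 normalized counts, with the next at 1049, and still lay below the lowest aged sample. Aged 4 was the highest aged sample for Lgals3bp, at 22027 normalized counts, with the next at 13792.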

How the results depend on the processing

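Lyz2 kept its direction and its call in all 24 alternatives, with log2 differences of 0.60 to 0.68 and adjusted p-values of 6.2e-08 to 0.0033. The number of markers that rose was 1 to 2 in fits without 1 sample (2 without aged 5) and 2 without aged samples 5 and 6, the addition being Cst7. No marker fell in any alternative. The number of other disease-associated genes that rose, 5, was 4 to 8 in fits without 1 sample, 8 without aged samples 5 and 6, 6 with quantile normalization, and, on the 8 samples with 1 library, 3 in limma, 3 in edgeR and 6 in DESeq2, and 0 fell throughout. The differences of Itgax and Cd9, both near 0, changed sign. Itgax ran from -0.030 to 0.23 over fits without 1 sample. Cd9 ran from -0.051 to 0.039 over such fits, and was 0.0112 with equal column totals, 0.0116 with quantile normalization and 0.0084 without aged samples 5 and 6. The cause of these changes was not tested. Apoe lost its call with no filter on low values, where more genes are tested (limma, adjusted p = 0.0536). Anxa5 and Cybb lost theirs in limma and edgeR on the 8 samples with 1 library but kept them in DESeq2 on the same samples (adjusted p = 0.0026 and 0.0057), with log2 differences of 0.46 to 0.47 and 1.00 to 1.02 in the 3 fits. In those 3 fits Igf1 was at -0.47 to -0.45, Spp1 at 0.99 to 1.01, Lgals3 at 0.03 to 0.14, Cd63 at 0.08 to 0.10 and Itgax at 0.15 to 0.16, and none of these passed. Gpr34 gained a call in 6 of 24 alternatives (smallest adjusted p = 0.00062, in DESeq2) and P2ry13 in 5 (smallest 0.0233, in limma). Igf1 gave no value with the filter at 50 normalized counts.

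Sample numbers 1 to 6 are shared by the ages but do not pair the samples, and a sample correlated best with its own number for 1 young and 2 aged samples. With the number as a replicate block 1 marker rose (Lyz2, limma, adjusted p = 0.00026), 0 fell, and 5 other disease-associated genes rose. Lgals3bp lost its call under the block (limma, adjusted p = 0.0607) and Gpr34 gained one (0.0486).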

Other observations

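The promoter windows of the 10 markers, 300 bases around each annotated start, most of them before it (RefSeq, GRCm38.p6), were searched on both strands for 3 short motifs. GAGGAA, with reverse complement TTCCTC, a core that PU.1 can bind, was found for 4 of 10 markers (Clec7a, Spp1, Cd63 and Igf1). It lay in 5 of the 12 windows of the markers, against 28.3% of all 32851 windows. Some markers have more than 1 window. The windows of Clec7a overlap almost fully and hold the same GAGGAA site, which is therefore counted in each of them. CATGTG, with reverse complement CACATG, an E-box, was found for 1 marker, Cd9, in 1 of the 12 windows, against 14.2% of all windows. CACGTG, an E-box that reads the same on both strands, was found for 0 markers, against 7.15% of windows. Lyz2 and Cst7 held none of the 3. These are counts of letters in a window and say nothing of binding.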
